A study of Mus musculus with 30 samples.

Results

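Regulators of G protein signalling (RGS proteins) and 2 G protein alpha subunits were followed across 3 kinds of mouse splenic B cells. These were B cells that carry an Ikzf3 missense mutation, the CLL-like cells that arise in such mice, and wild-type B cells. The 9 genes were taken by name from the deposited expression tables: Rgs1, Rgs2, Rgs3, Rgs10, Rgs14, Rgs18, Rgs19, Gnai2 and Gna13. All 9 were found in both tables, among 26266 genes in the table of young mice and 22781 in the table of aged mice. Each table was analysed on its own.

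A ligand-bound receptor makes the G protein alpha subunit exchange GDP for GTP and part from the beta and gamma subunits, and each released piece then passes the signal on. RGS proteins speed up the hydrolysis of GTP by the alpha subunit and so shorten the signal. In lymphocytes this sets how long a cell answers chemokines and egress signals: Gnai2 encodes the main alpha subunit of chemokine receptors, and Gna13 encodes a subunit that acts through the exchange factor Arhgef1 and helps confine B cells to follicles.

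Ikzf3 encodes the lymphoid transcription factor Aiolos, a relative of Ikaros, and the mutation was a conditional knock-in restricted to B cells in mice of strain C57BL/6. The promoter that drives recombination is not given in the sources used here. The young groups, at 2 to 3 months, were homozygous B cells (Ikzf3 fl/fl, n = 3) and wild-type B cells (n = 3), purified with magnetic beads. The aged groups, at 15 to 18 months, were CLL cells isolated by flow sorting on B220 and CD5 (n = 5), other B cells of mutant mice, here called non-CLL B cells (n = 4), and wild-type B cells (n = 3). CLL library 6 and non-CLL library 6 were Ikzf3 fl/fl and the other CLL and non-CLL libraries Ikzf3 fl/+. CLL and non-CLL libraries with the same number (2, 4, 5 and 6) came from the same mouse, and CLL library 1 had no partner. The labels do not say that the young libraries are separate animals, so their p-values may measure technical spread in large part. Only wild-type library 3 can be told apart from wild-type libraries 1 and 2, by the sex-linked transcripts given below.

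Levels are in TPM, a length-adjusted relative abundance with a fixed total per library that keeps no record of read number, so the depth behind each value is unknown. All 10 B cell markers examined were above 0 in every library, with sums between 5799 and 16876 TPM. Some libraries stood apart. Young wild-type libraries 1 and 2 had 80.9 and 63.1 TPM of Xist, the transcript of the inactive X chromosome, while the 3 homozygous libraries and wild-type library 3 held the Y-linked Ddx3y between 54.3 and 148 TPM. By these transcripts wild-type libraries 1 and 2 were female and the other young libraries male. Sex was thus unevenly split between the young groups, and its part cannot be fully told apart from that of the mutation. In the aged mutant libraries, genes that B cells do not use had signal: the median of 1106 olfactory receptor genes was 9.66 TPM in CLL library 6, 1.08 to 2.71 TPM in the other CLL libraries, 7.16 to 9.24 TPM in non-CLL libraries and 0 to 0.745 TPM in wild-type libraries. It was 0 in all young libraries.

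In brief, Rgs1 and Rgs2 stood far higher in young homozygous than in young wild-type B cells. In aged mice both were higher in non-CLL B cells than in CLL cells, also within the same mouse, and than in wild-type cells. Neither was called between CLL and wild-type cells. The non-CLL libraries also carried olfactory receptor signal and the highest NK and dendritic cell marker sums, and the part of either was not tested. Gna13 and, by a small margin, Rgs14 were also higher in young homozygous cells and Rgs10 lower. The young groups also differed in the sex of their libraries, and the Rgs14 call was lost with TMM rescaling. Rgs3, Rgs19 and Gnai2 passed the test in none of the 4 comparisons. In every sample Rgs19 or Rgs2 was the most abundant of the 7 Rgs transcripts.

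**Figure D1:**
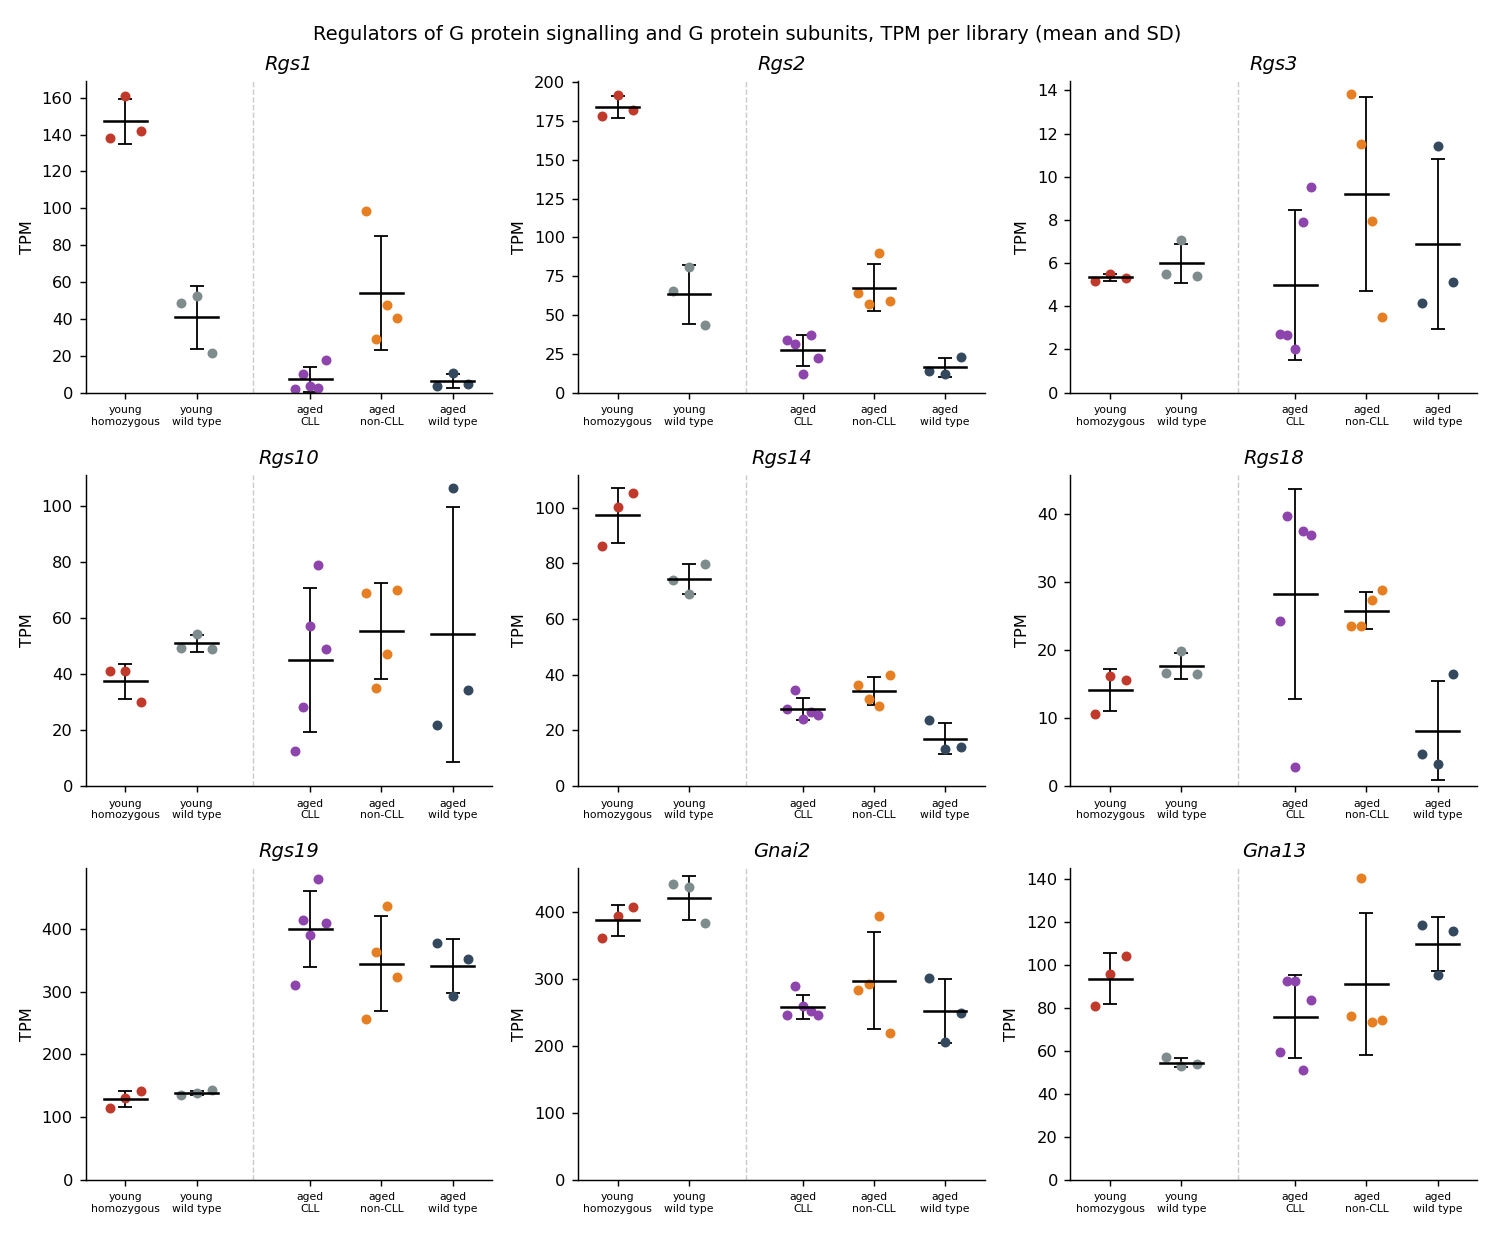
TPM per library (points) with mean and SD (bars) for the 9 genes in the 5 groups, each panel on its own linear axis from 0. The dashed line parts the young from the aged table, whose levels were normalized separately. Rgs1 and Rgs2 sit highest in the young homozygous libraries, and among aged libraries in the non-CLL B cells.

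Rgs2, Rgs1 and Rgs18 lie in one region of chromosome 1, with Rgs13 between Rgs2 and Rgs1 and Rgs21 between Rgs1 and Rgs18. In GRCm38.p6 (the assembly of mm10) RefSeq places Rgs2 from 143999338 to 144004149, Rgs1 from 144244669 to 144249104 and Rgs18 from 144752683 to 144775427, with 240520 bases between Rgs2 and Rgs1 and 503579 between Rgs1 and Rgs18. The other 6 genes lie on other chromosomes: Gna13 on chromosome 11 (109362794 to 109401369), Rgs10 on chromosome 7 (128373621 to 128419506), Gnai2 on chromosome 9 (107614125 to 107635391), Rgs14 on chromosome 13 (55369732 to 55384687), Rgs19 on chromosome 2 (181688419 to 181694537) and Rgs3 on chromosome 4 (62559835 to 62703019). Promoter windows, 250 bases before to 50 after the start site, were found in RefSeq for 5 of the 9 genes. Those of Rgs2, Gna13 and Rgs10 are shown because these genes passed the test in young cells. Capitals mark matches to 3 motifs, each searched on both strands: GGGAA, the core that Ikaros family proteins bind, TGACGT, the core of the cyclic AMP response element, and CCAAT. No motif overlaps another.
Rgs2: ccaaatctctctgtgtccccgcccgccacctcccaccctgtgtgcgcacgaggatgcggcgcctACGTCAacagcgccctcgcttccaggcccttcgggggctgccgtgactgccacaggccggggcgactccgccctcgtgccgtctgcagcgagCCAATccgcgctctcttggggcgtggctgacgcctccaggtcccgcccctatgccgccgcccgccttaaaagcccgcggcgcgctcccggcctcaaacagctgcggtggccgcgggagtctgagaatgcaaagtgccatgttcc
Gna13: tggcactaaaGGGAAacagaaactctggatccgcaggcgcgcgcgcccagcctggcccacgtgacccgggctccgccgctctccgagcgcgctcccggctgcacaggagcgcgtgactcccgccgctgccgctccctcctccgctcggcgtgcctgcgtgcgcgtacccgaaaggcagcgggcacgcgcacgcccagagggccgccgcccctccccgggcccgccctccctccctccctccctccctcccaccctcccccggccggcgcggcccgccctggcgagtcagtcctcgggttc
Rgs10: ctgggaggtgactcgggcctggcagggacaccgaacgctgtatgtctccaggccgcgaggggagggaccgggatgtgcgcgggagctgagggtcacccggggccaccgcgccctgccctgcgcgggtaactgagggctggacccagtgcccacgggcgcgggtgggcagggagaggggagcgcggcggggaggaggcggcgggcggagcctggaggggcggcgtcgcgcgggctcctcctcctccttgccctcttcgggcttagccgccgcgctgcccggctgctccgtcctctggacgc
The Rgs2 window is chr1:144004100-144004399 (minus strand). It holds TGACGT once, read on the opposite strand as ACGTCA, at position -186 relative to the start, and CCAAT once, at -94. The Gna13 window, chr11:109362544-109362843 (plus strand), holds GGGAA once, at -240. The Rgs10 window, chr7:128418123-128418422 (minus strand), holds none of the 3. It belongs to a start site that lies inside the outer bounds RefSeq gives for Rgs10, so other starts of the gene were not searched. Among 32817 mouse promoter windows of this length, 62.7% hold GGGAA, 37.4% CCAAT and 7.51% TGACGT. These matches describe letters only and say nothing of binding.

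The young groups set homozygous against wild-type B cells. Tests were made with limma on log2(TPM + 1), and a gene is called when its Benjamini-Hochberg adjusted p over all genes tested is under 0.05. Of the 9 genes, 4 were called higher in homozygous cells (Rgs1, Rgs2, Rgs14 and Gna13), where 38.4% of all 12219 genes tested were called higher, and 1 was called lower (Rgs10), against 12.6% of all genes. In either direction 51% of all genes were called. The values of the groups did not overlap for 4 genes that were higher and 2 that were lower, against 44.5% and 16.9% of all genes. With a minimum of 20 TPM the same counts of 4 and 1 stood against 48.1% and 13.7% of 6468 genes. The counts are thus close to the background, and it is the size of the Rgs1 and Rgs2 changes that stands out. Of all called genes 75.3% were higher, and 51.7% with trimmed-mean (TMM) rescaling. Rgs1 and Rgs2 ranked 123 and 230 of all 12219 genes by absolute log2 change. The median log2 change was -0.11 over the 9 genes and 0.18 over all genes.

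Rgs1, which dampens chemokine responses of activated and germinal centre B cells, was at 138, 161 and 142 TPM in homozygous libraries, against 48.6, 52.5 and 21.3 TPM in wild-type libraries. The lowest homozygous value exceeded the highest wild-type value, and wild-type library 3 was the lowest of the 6. The log2 change was 1.92 (SE 0.37, limma adjusted p = 0.0106), a 3.79-fold difference with a 95% interval of the log2 change from 0.97 to 2.87.

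Rgs2, which acts mainly on Gq-type alpha subunits and is induced early by many stimuli, was at 178, 192 and 182 TPM in homozygous libraries, against 65.8, 80.7 and 43.4 TPM in wild-type libraries. Again the groups did not overlap and wild-type library 3 was lowest. On the log2 scale the change was 1.57 (SE 0.22, limma adjusted p = 0.00194), or 2.97-fold. Without wild-type libraries 1 and 2, which hold Xist, the log2 changes were larger, at 2.73 for Rgs1 (limma adjusted p = 2.18e-05) and 2.06 for Rgs2 (2.95e-05), with the lone wild-type library assumed to vary like the other group. In bulk samples a change in RNA per cell and a change in the share of cells that express the gene cannot be told apart.

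Gna13 was at 81.0, 95.5 and 104 TPM in homozygous libraries, against 56.9, 52.8 and 53.6 TPM in wild-type libraries. The spread was small in the wild-type group (SD 2.199) and larger in the homozygous group (SD 11.8), and the groups did not overlap. The log2 change was 0.76 (SE 0.10, limma adjusted p = 0.000629), and it was 0.79 without wild-type libraries 1 and 2 (adjusted p = 0.0120). Gnai2, the other alpha subunit of the set, was at 361, 393 and 406 TPM in the homozygous libraries, with 441, 437 and 383 TPM for wild type. These ranges overlapped. Its log2 change was -0.12 (95% interval -0.32 to 0.08, limma adjusted p = 0.290), and it turned to 0.01 without wild-type libraries 1 and 2. The Gnai2 to Gna13 ratio of TPM was therefore 4.16 ± 0.283 in homozygous and 7.72 ± 0.569 in wild-type cells (SD, n = 3 each), a ratio looked at after the values were seen.

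Rgs14, which combines an RGS domain with a motif that holds Gi subunits in the GDP form, was at 86.2, 100.1 and 105 TPM in the homozygous libraries, with 73.9, 69.2 and 79.8 TPM for wild type. The groups did not overlap, and the log2 change of 0.38 (SE 0.10, limma adjusted p = 0.0101) exceeded the median of all genes by 0.20. With TMM rescaling, which moved the median of all genes to -0.01, it was 0.18 and no longer called (adjusted p = 0.0844). Without wild-type libraries 1 and 2 it was 0.28 and not called (adjusted p = 0.172). Rgs10, a small RGS protein that acts on Gi subunits, was at 41.0, 41.1 and 30.1 TPM in the homozygous libraries, with 49.4, 54.4 and 48.9 TPM for wild type. Each homozygous library lay under each wild-type library, with library 3 lowest. On the log2 scale the change was -0.45 (SE 0.12, limma adjusted p = 0.0151), and the call was lost without wild-type libraries 1 and 2 (-0.39, adjusted p = 0.174).

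The remaining RGS genes were not called in young cells. Rgs19, also known as GAIP and active on Gi-type subunits, averaged 129 ± 13.5 TPM in homozygous cells, against 139 ± 3.27 TPM for wild type (log2 -0.11, 95% interval -0.32 to 0.09, limma adjusted p = 0.311). Rgs18, known from platelets and megakaryocytes, had 10.6, 16.2 and 15.6 TPM in the homozygous libraries, with 16.6, 19.9 and 16.4 TPM for wild type (log2 -0.32, adjusted p = 0.124). Its groups did not overlap, by a gap under the spread within either. Rgs3, which acts on Gi and Gq subunits, stood at 5.18 to 5.52 TPM in the homozygous libraries, with 5.42 to 7.05 TPM for wild type (log2 -0.13, adjusted p = 0.428). With TMM rescaling Rgs18 (log2 -0.51, adjusted p = 0.0253), Rgs19 (-0.32, 0.00817) and Gnai2 (-0.33, 0.0192) were called lower, and Gnai2 also with library quality weights (-0.16, 0.0428). Of all genes 22.6% were called lower with TMM rescaling and 18.5% with the weights.

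Within the 7 Rgs genes the make-up of the transcripts differed between the young groups. Rgs1 and Rgs2 together held 54.0% ± 1.60 of the summed TPM in homozygous libraries and 26.2% ± 7.14 in wild-type libraries (SD, n = 3 each). Rgs2 was the highest of the 7 in all 3 homozygous libraries and Rgs19 in all 3 wild-type libraries. The sum itself was 614 ± 36.6 TPM in homozygous cells, against 391.6 ± 32.4 TPM for wild type. Rgs10 held 6.12% ± 1.17 of the sum in homozygous and 13.0% ± 0.606 in wild-type libraries. These shares follow from the values above and carry no test.

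**Figure D2:**
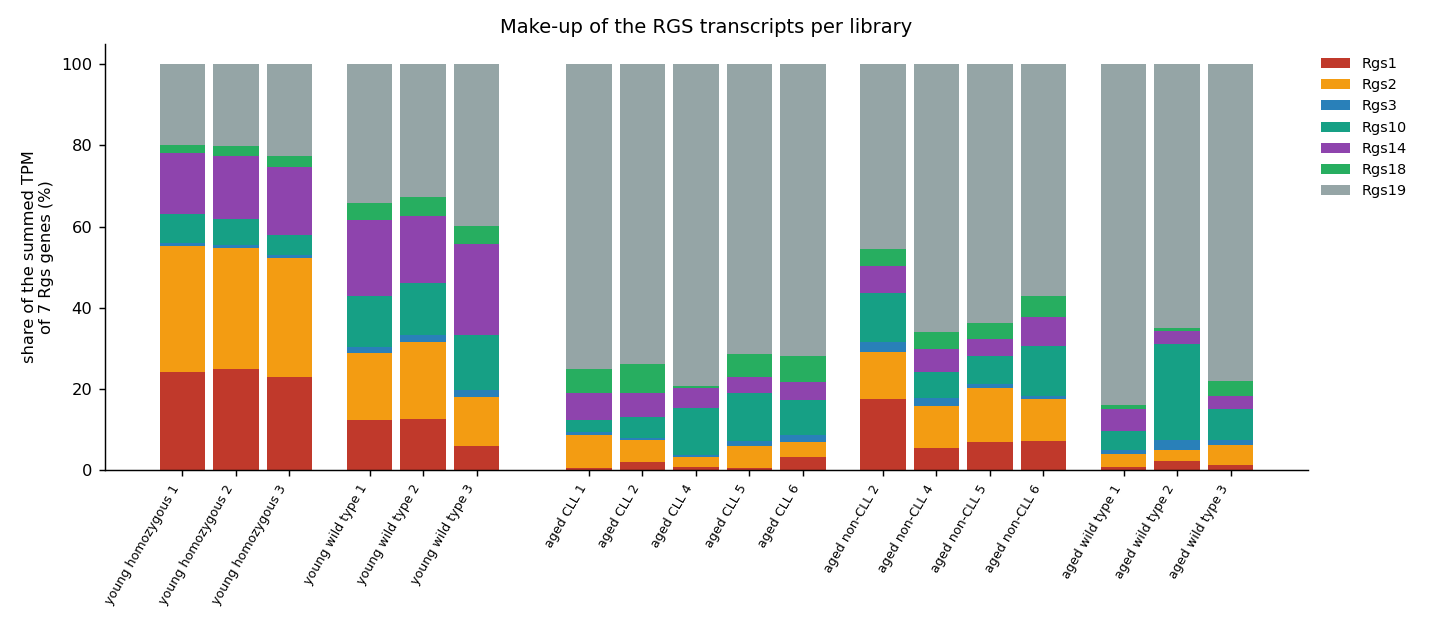
Share of each Rgs gene in the summed TPM of the 7 Rgs genes, 1 bar per library, in percent. Rgs1 and Rgs2 fill over 52.1% of every young homozygous bar and at most 31.6% of any young wild-type bar, while Rgs19 fills between 45.6% and 84.0% of the aged bars.

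Other genes of the pathway moved in both directions in young cells. Of 22 tested G protein coupled receptors of B cells, 6 were called higher and 8 lower. Cxcr4, the receptor for the bone marrow and dark zone chemokine CXCL12, was at 822 ± 11.2 TPM in homozygous cells, against 295 ± 79.3 TPM for wild type (log2 1.51, limma adjusted p = 0.00122), and Gpr174 (log2 0.98) and Gpr132 (0.93) were also higher. Cxcr5, the follicle homing receptor, was at 168 ± 10.0 TPM in homozygous cells, against 282 ± 42.1 TPM for wild type (log2 -0.73, limma adjusted p = 0.00105), with Adora2a (-1.28) and Cxcr3 (-1.03) lower as well. Among effectors 8 of 17 were higher and 1 lower. The kinases Rock2 (log2 0.81) and Rock1 (0.67), which act downstream of Gna13, and the phospholipase Plcb2 (0.72) rose, and the kinase adaptor Pik3r6 fell, from a low level (log2 -0.92).

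Of 13 other regulators of alpha subunits and receptors, 4 were higher and 1 lower, among them Gpsm1 (log2 0.88), Ric8b (0.66) and Grk4 (0.52) up and Gpsm3 (-0.35) down. Of 9 beta and gamma subunits Gng2 (log2 0.40) was higher and Gngt2 (-0.80) and Gng5 (-0.27) were lower. Of 7 other alpha subunits Gna11 (log2 0.46) was higher. Of 14 other RGS genes 3 passed the filter on low values and none was called by limma, with 0 at an unadjusted p under 0.05. Each of these shares can be read against the 38.4% higher and 12.6% lower of all genes.

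Immediate early genes, which cells transcribe within minutes of a stimulus, moved with Rgs1 and Rgs2. Of 27 such genes 24 were called higher in homozygous cells and 0 lower (median log2 1.48), led by Fosb (4.09), Atf3 (2.99) and Klf4 (2.79). Their summed level was 8544 to 8933 TPM in homozygous libraries, against 2843 to 3267 TPM for wild type. Over the 6 young libraries the genes whose log2(TPM + 1) was most like that of Rgs1 were Fos (Pearson r = 0.997), Rgs2 (0.993), Vmp1 and Psmd12 (0.992 each). For Rgs2 they were Junb (0.996), Igkj5, Rgs1, Ccz1 and Pim1 (0.993 to 0.992), among 6288 genes with a mean of at least 20 TPM. These values describe 6 libraries in 2 groups, so that any gene with a large group difference scores high. Myeloid markers ran the other way, with a summed level of 19 genes of 304 to 675 TPM in homozygous libraries, against 1735 to 6296 TPM for wild type. The part of either in the Rgs changes was not tested.

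In aged mice the first question is how CLL cells differ from wild-type B cells. None of the 9 genes was called by limma, and 0 had an unadjusted p under 0.05, where 2.94% of all 21202 genes tested were called higher and 0.604% lower (3.54% in either direction). The groups did not overlap for 1 gene that was higher and 1 that was lower, against 29% and 2.55% of all genes. With a minimum of 20 TPM 1.38% of 6972 genes were called higher and 0.76% lower, again with 0 members in either direction. The median log2 change was 0.05 over the 9 genes and 0.93 over all genes, which includes the background signal of the CLL libraries. TMM rescaling put the median of all genes at 0.74 and the share of called genes that were higher at 96.7%, against 83.0% without it. This comparison shares its CLL libraries with the next one and its wild-type libraries with the last one, so the values are set side by side and not counted as independent.

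Rgs1 was at 2.01, 10.3, 3.52, 2.75 and 17.7 TPM in CLL libraries 1, 2, 4, 5 and 6, against 3.66, 10.4 and 4.93 TPM in wild-type libraries. The groups overlapped over most of their range. The log2 change was -0.09 (SE 0.61, 95% interval -1.31 to 1.14, limma adjusted p = 0.924), an interval wide enough to hold a change of either sign. In CLL library 6, 5.61% of olfactory receptor genes were at or above Rgs1, and in CLL libraries 1 and 5 this share was 30.1% and 42.8%, so Rgs1 was within the background there.

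Rgs2 was at 33.7, 31.1, 12.3, 37.0 and 22.1 TPM in CLL libraries, against 13.9, 11.9 and 23.2 TPM in wild-type libraries. CLL libraries 1, 2 and 5 exceeded all wild-type libraries, and CLL libraries 4 and 6 lay within the wild-type range. On the log2 scale the change was 0.67 (SE 0.42, 95% interval -0.18 to 1.51, limma adjusted p = 0.208). Rgs18 was at 24.3, 39.7, 2.85, 37.6 and 36.9 TPM in CLL libraries, against 4.67, 3.31 and 16.5 TPM in wild-type libraries. Library 4 alone was low among the CLL libraries, and wild-type library 3 high among the wild-type ones. The log2 change was 1.58 (SE 0.84, limma adjusted p = 0.167). It was called without CLL library 4 (2.22, adjusted p = 0.00117) and without wild-type library 3 (2.19, adjusted p = 0.0129). Without CLL library 4, 37.1% of all genes were called higher, against 2.94% with all libraries, so that Rgs18 call does not stand out. Without wild-type library 3 the share of all genes called higher was under that with all libraries.

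Gna13 was lower in each CLL library than in any wild-type library, at 59.4, 92.3, 92.5, 51.2 and 83.5 TPM in CLL cells against 118, 95.5 and 116 TPM in wild-type cells, but was not called (log2 -0.56, SE 0.33, limma adjusted p = 0.168). Rgs14 was higher in each CLL library, at 23.95 to 34.4 TPM in CLL cells against 13.5 to 23.6 TPM in wild-type cells, and was not called either (log2 0.70, SE 0.40, adjusted p = 0.160). With library quality weights both were called (Gna13 -0.64, adjusted p = 0.0279, and Rgs14 0.73, adjusted p = 0.0431). Under that setting 51.7% of all genes were called higher and 6.26% lower. The other 4 genes had ranges that overlapped and intervals that spanned 0: Rgs19 (log2 0.23), Gnai2 (0.05), Rgs10 (-0.18) and Rgs3 (-0.49), with limma adjusted p between 0.555 and 0.908.

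The second aged comparison sets CLL cells against the non-CLL B cells of mutant mice. Of the 9 genes 2 were called lower in CLL cells (Rgs1 and Rgs2), against 5.02% of all 22316 genes tested, and 0 higher, against 0.744% (5.77% in either direction). The same 2 genes were the members whose groups did not overlap, against 7.51% of all genes lower and 1.17% higher without overlap. With a minimum of 20 TPM both were again called lower and 0 members higher, against 1.9% and 1.34% of 7175 genes. Rgs1, with at most 17.7 TPM in CLL libraries, passed this filter only through the non-CLL libraries. Its call there is thus no independent support. The median log2 change was -0.29 over the 9 genes and -0.77 over all genes. TMM rescaling put the median of all genes at -0.04 and the share of called genes that were higher at 74.1%, against 12.9% without it.

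Rgs1 was at 2.01, 10.3, 3.52, 2.75 and 17.7 TPM in CLL libraries 1, 2, 4, 5 and 6, against 98.7, 29.1, 47.5 and 40.2 TPM in non-CLL libraries 2, 4, 5 and 6. Every non-CLL library exceeded every CLL library. On the log2 scale the change was -2.95 (SE 0.51, 95% interval -4.01 to -1.89, limma adjusted p = 0.00323), and it ranked 63 of all genes by absolute size. It was called under all 19 alternative settings, with log2 changes between -3.52 and -2.10. After subtraction of the olfactory receptor median it was -3.52 (adjusted p = 0.0103).

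Rgs2 was at 12.3 to 37.0 TPM in CLL libraries, against 63.9, 57.0, 90.0 and 59.3 TPM in non-CLL libraries. The groups did not overlap here either. The log2 change was -1.35 (SE 0.32, 95% interval -2.01 to -0.69, limma adjusted p = 0.0219), which exceeds the median shift of all genes by -0.57. By absolute size the Rgs2 change ranked 4609 of all genes. The call of Rgs2 was less firm. It was lost with TMM rescaling (-0.40, adjusted p = 0.515), after background subtraction (-1.39, 0.0616), without CLL library 4 (-1.10, 0.0604) and without non-CLL library 5 (-1.20, 0.0585).

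The same contrast can be read within 4 mice. Rgs1 was lower in the CLL cells of each, by log2 differences of -3.14, -2.74, -3.69 and -1.14 in mice 2, 4, 5 and 6. Mouse 6, the homozygous one, had the smallest difference, and its CLL library had the strongest background. Rgs2 was lower in the CLL cells of each as well, by -1.02, -2.12, -1.26 and -1.38. With the mouse as a block in the limma fit, which leaves out CLL library 1, Rgs1 stood at -2.68 (SE 0.40, adjusted p = 0.00300) and Rgs2 at -1.45 (SE 0.28, adjusted p = 0.0153). This fit called 799 genes, against 333 in the fit without the block on the same 8 libraries and 1287 with CLL library 1 and no block.

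**Figure D3:**
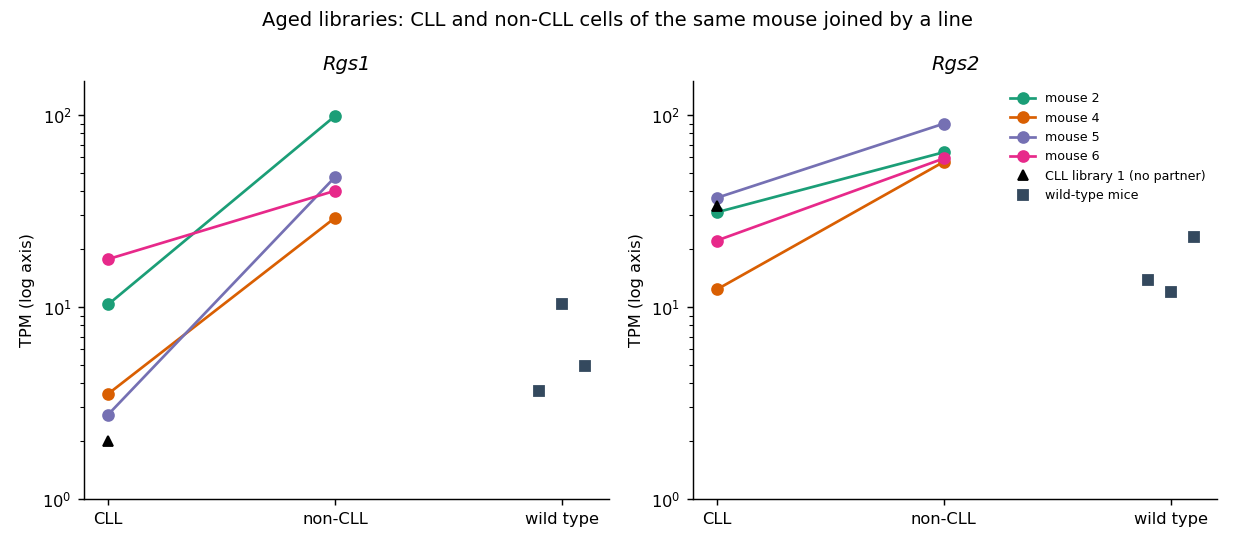
TPM of Rgs1 and Rgs2 on a log axis in CLL and non-CLL cells of the same mouse (joined points), in CLL library 1, which has no partner (triangle), and in aged wild-type mice (squares). Every line climbs from CLL to non-CLL cells, and the wild-type values overlap the CLL values.

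The other 7 genes were not called between CLL and non-CLL cells. Rgs19 was higher in the CLL cells of 4 of 4 mice, by log2 differences of 0.11 to 0.69, but across all libraries the log2 change was 0.23 (95% interval -0.29 to 0.75, limma adjusted p = 0.505). Rgs14 was lower in the CLL cells of 4 of 4 mice, by -0.63 to -0.07 (log2 change -0.29, adjusted p = 0.469). The median of all genes was -0.77, and the Rgs14 change lay 0.48 above it. Rgs10, Gnai2 and Gna13 went either way, each lower in the CLL cells of 2 mice and higher in 2. Rgs18 was higher in the CLL cells of 3 mice and lower in mouse 4 (log2 -2.67), where the CLL library had 2.85 TPM. Rgs3, with 2.04 to 9.51 TPM in CLL and 3.49 to 13.8 TPM in non-CLL libraries, lay among the olfactory receptor genes. Between 7.05% and 77.8% of these were at or above it in the non-CLL libraries. It was called lower with library quality weights (log2 -1.29, adjusted p = 0.0110) and among heterozygous libraries alone (-1.43, adjusted p = 0.0154). Those fits called 50.2% and 49.0% of all genes lower, so the Rgs3 calls do not stand out.

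Markers of other cells moved with Rgs1 here. The summed level of 12 NK and dendritic cell markers was 22.6 to 161 TPM in CLL, 474 to 1757 TPM in non-CLL and 54.2 to 233 TPM in wild-type libraries, and 9 of the 12 were called lower in CLL than in non-CLL cells. Siglech, a marker of plasmacytoid dendritic cells, was at 1.32 to 18.1 TPM in CLL, 137 to 784 TPM in non-CLL and 0 to 126 TPM in wild-type libraries. Over the 12 aged libraries Siglech was among the 5 genes most like Rgs1 (Pearson r = 0.893), after Ubqln2 (0.948), the G alpha regulator Ccdc88a (0.911) and the protease Ctsl (0.902), and before A030009H04Rik (0.886). In non-CLL libraries 2, 4, 5 and 6 the marker sum was 560, 738, 474 and 1757 TPM. Rgs1 was at 98.7, 29.1, 47.5 and 40.2 TPM in the same libraries. For Rgs2 the most alike were Akr1b10 (0.879), Rraga (0.876), Nsun3 (0.870) and Mthfs (0.863). Summed T cell markers were at 22.2 to 394 TPM in CLL, 210 to 564 TPM in non-CLL and 10.4 to 666 TPM in wild-type libraries, and summed neutrophil and macrophage markers at 267 to 3023, 322 to 632 and 76.4 to 416 TPM. The part of these cells in the Rgs1 and Rgs2 differences was not tested.

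Among other pathway genes, 4 of 24 receptors were lower in CLL than in non-CLL cells, where 5.02% of all genes were called lower and 0.744% higher. They included Cxcr3 (log2 -3.90), Ccr9 (-3.51) and Ccr6 (-2.93), chemokine receptors whose levels were at most 13.5 TPM in every CLL library. The sphingosine receptor S1pr3 was higher, at 88.6 ± 60.9 TPM in CLL and 13.6 ± 7.80 TPM in non-CLL cells (log2 2.49, limma adjusted p = 0.0345). Of 17 beta and gamma subunits Gnb4 (-2.86), Gng12 (-2.79) and Gng8 (-1.67) were lower. Gng8 was at 8.14 to 13.9 TPM in non-CLL libraries. That is within the range of the olfactory receptor genes there, whose 95th percentile was 13.9 to 27.1 TPM. Of 13 other alpha subunits Gnaz (-2.78) was lower, and of 13 other regulators Ccdc88a (-2.66). Of 19 effectors the GTPase Rac2 was higher (log2 0.98, adjusted p = 0.0469). Of 27 immediate early genes 1 was called higher and 2 lower, with Myc (log2 1.86) up and Junb (-1.63) and Ier2 (-1.38) down. None of 13 other RGS genes was called by limma, with 9 at an unadjusted p under 0.05.

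The last comparison sets non-CLL B cells of mutant mice against aged wild-type B cells. Of the 9 genes 4 were called higher (Rgs1, Rgs2, Rgs14 and Rgs18) and 0 lower. This is under the share of all genes, of which 55.8% were called higher and 1.48% lower among 22150 tested (57.3% in either direction). The groups did not overlap for the same 4 genes, all higher, against 53.7% of all genes higher and 2.33% lower, and the median log2 change was 0.34 over the 9 genes and 1.65 over all genes. Of all called genes 97.4% were higher, and 74.0% with TMM rescaling, which put the median of all genes at 0.99. With a minimum of 20 TPM 0.942% of 7220 genes were called higher and 0.208% lower, and Rgs1 and Rgs2 were the 2 members called. Both passed this filter only through the non-CLL libraries, where they were high. In wild-type libraries their medians were 4.93 and 13.9 TPM. These 2 calls are thus no independent support.

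Rgs1 was at 98.7, 29.1, 47.5 and 40.2 TPM in non-CLL libraries, against 3.66, 10.4 and 4.93 TPM in wild-type libraries. On the log2 scale the change was 2.86 (SE 0.45, limma adjusted p = 0.000221), a 7.28-fold difference with no overlap, and 1.21 above the median of all genes. Rgs2 was at 63.9, 57.0, 90.0 and 59.3 TPM in non-CLL libraries, against 13.9, 11.9 and 23.2 TPM in wild-type libraries. Its log2 change was 2.01 (SE 0.31, limma adjusted p = 0.000171), 4.04-fold and 0.36 above the median of all genes. By absolute size the Rgs1 and Rgs2 changes ranked 3894 and 9524 of all 22150 genes tested. After subtraction of the olfactory receptor median the changes were 2.602 and 1.85, and neither was called (adjusted p = 0.0564 and 0.0536). With TMM rescaling both stayed called, at 1.89 (adjusted p = 0.0128) and 1.01 (0.0383). That setting called 43.9% of all genes higher, with a median log2 change of 0.99 over all genes. The Rgs2 change was thus close to that of a typical gene.

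Rgs18 was at 23.5, 23.5, 27.3 and 28.8 TPM in non-CLL libraries, against 4.67, 3.31 and 16.5 TPM in wild-type libraries. The groups did not overlap (log2 1.82, SE 0.46, limma adjusted p = 0.00498). The call was lost with a minimum of 20 TPM (adjusted p = 0.127), after background subtraction (1.38, 0.181) and with TMM rescaling (0.90, 0.103). Platelet and megakaryocyte markers, whose cells are known for Rgs18, had summed levels of 16.4 to 92.3 TPM in CLL, 74.9 to 109 TPM in non-CLL and 17.6 to 88.7 TPM in wild-type libraries over 12 genes. The median of single olfactory receptor genes was 7.16 to 9.24 TPM in non-CLL and 1.08 to 9.66 TPM in CLL libraries. Marker sums of this size over 12 genes were thus near the background in both groups. The part of platelets and megakaryocytes in the Rgs18 levels was not tested. Rgs14 was at 36.1, 31.3, 28.7 and 40.0 TPM in non-CLL libraries, against 23.6, 13.5 and 14.2 TPM for wild type (log2 0.99, SE 0.30, limma adjusted p = 0.0149). That is 0.66 under the median of all genes. The call was lost with a minimum of 20 TPM (adjusted p = 0.144), after background subtraction (0.62, 0.300) and without wild-type library 3 (0.88, 0.0618), and with TMM rescaling the change turned to -0.01.

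Gnai2, Gna13, Rgs19, Rgs10 and Rgs3 were not called between non-CLL and wild-type cells. Gna13 was at 76.2, 141, 73.5 and 74.5 TPM in non-CLL libraries, against 118, 95.5 and 116 TPM in wild-type libraries. Non-CLL libraries 2, 5 and 6 lay under all wild-type libraries and library 4 above them (log2 -0.32, limma adjusted p = 0.365). Rgs19 was at 345 ± 75.1 TPM in non-CLL (n = 4) and 340 ± 42.9 TPM in wild-type cells (n = 3), with a log2 change of 0.00 (95% interval -0.52 to 0.52). With TMM rescaling Gna13 (-1.35, adjusted p = 0.0109) and Rgs19 (-1.04, adjusted p = 0.0324) were called lower, and with library quality weights Rgs3 was called higher (1.00, adjusted p = 0.0193). TMM rescaling called 15.4% of all genes lower, and the weights called 64.2% higher.

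**Figure D4:**
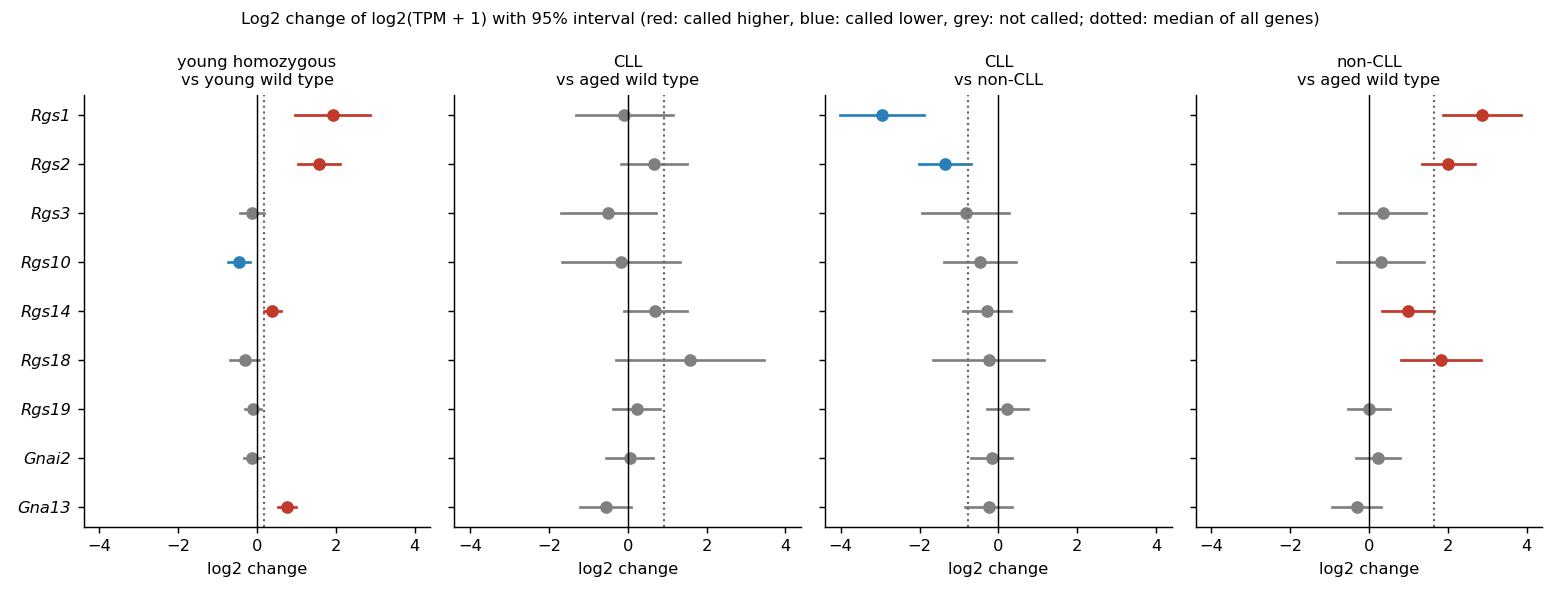
Log2 change of each gene with its 95% interval in the 4 comparisons, from limma on log2(TPM + 1). Red marks genes called higher, blue genes called lower and grey genes not called, and the dotted line is the median of all genes (0.18, 0.93, -0.77 and 1.65 from left to right).

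Among other pathway genes, 10 of 13 other RGS genes were called higher in non-CLL than in wild-type cells, where 55.8% of all genes were called higher and 1.48% lower. Rgs17, Rgs5 and Rgs22 led them, with means of 10.98 to 15.2 TPM in non-CLL and 0.205 to 0.521 TPM in wild-type libraries. Those levels are within the range of the olfactory receptor genes, whose 95th percentile was 13.9 to 27.1 TPM in the non-CLL libraries. Of 13 other alpha subunits 5 were higher, of 17 beta and gamma subunits 7 higher and 1 lower, of 13 other regulators 4 higher, of 19 effectors 3 higher and 2 lower, and of 24 receptors 3 higher and 1 lower. In each of these 5 lists the share called higher was under that of all genes. Gnb1, an abundant beta subunit, was lower in mutant cells of both kinds, at 6549 ± 1590 TPM in CLL (log2 -0.96, limma adjusted p = 0.0417), 7466 ± 1630 TPM in non-CLL (log2 -0.76, adjusted p = 0.0129) and 12615 ± 2448 TPM in wild-type cells. Rap1b, a small GTPase, was lower in non-CLL cells (log2 -0.77, adjusted p = 0.00648).

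Against wild-type cells, 4 of 27 immediate early genes were called higher in CLL cells, where 2.94% of all genes were, and 19 of 27 in non-CLL cells, where 55.8% of all genes were. Fos was at 747 to 1012 TPM in non-CLL and 12.3 to 411 TPM in wild-type libraries (log2 4.00, limma adjusted p = 0.00638). Dusp1 (log2 2.41), Egr1 (1.91) and Myc (1.46) were higher in CLL than in wild-type cells. The summed level of the 27 genes was 2472 to 7367 TPM in CLL, 3733 to 5976 TPM in non-CLL and 1594 to 2817 TPM in wild-type libraries. The CLL and non-CLL ranges of this sum overlapped. The median log2 change of the 27 genes was 1.11 in CLL against wild-type cells, -0.53 in CLL against non-CLL cells and 1.57 in non-CLL against wild-type cells, where the medians of all genes were 0.93, -0.77 and 1.65. Of other RGS genes Rgs11, and of effectors Rac2, were called higher in CLL than in wild-type cells (log2 2.57 and 1.14).

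**Figure D5:**
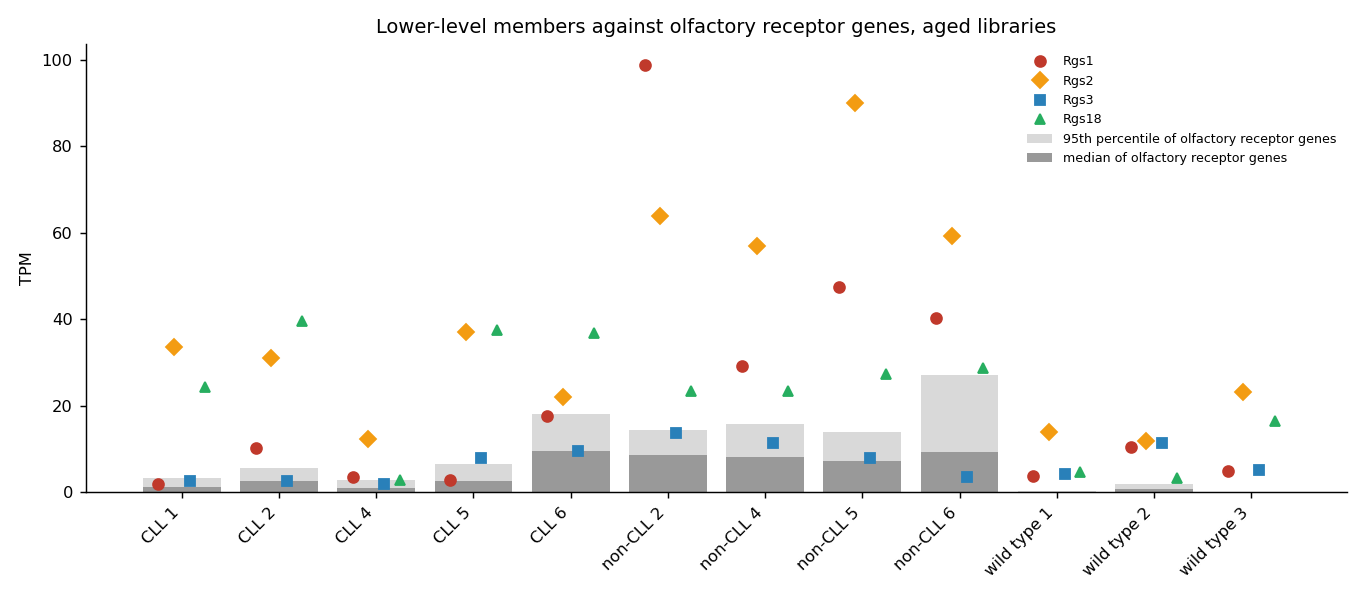
TPM of Rgs1, Rgs2, Rgs3 and Rgs18 (points) in the 12 aged libraries, with the median (dark bars) and 95th percentile (light bars) of 1106 olfactory receptor genes. Rgs1 and Rgs2 stand above the light bars in all 4 non-CLL libraries, Rgs3 lies within them in the same 4, and Rgs1 lies within them in CLL libraries 1, 5 and 6.

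Set in order, aged Rgs1 averaged 7.26 ± 6.72 TPM in CLL (n = 5), 53.9 ± 30.8 TPM in non-CLL (n = 4) and 6.33 ± 3.58 TPM in wild-type cells (n = 3). The non-CLL group stood apart from both others, and CLL and wild-type cells differed by less than their spread. Aged Rgs2 averaged 27.2 ± 10.00 TPM in CLL, 67.5 ± 15.2 TPM in non-CLL and 16.3 ± 6.04 TPM in wild-type cells, with the same order and the same gap. Rgs14 averaged 27.7 ± 4.04, 34.0 ± 5.03 and 17.1 ± 5.64 TPM in these groups, where CLL and non-CLL cells were within their spread. Rgs18 averaged 28.2 ± 15.4, 25.8 ± 2.70 and 8.15 ± 7.24 TPM, with CLL and non-CLL cells again within their spread. For Rgs3, Rgs10, Rgs19, Gnai2 and Gna13 no neighbouring groups in the order differed by more than the 2 SDs together. The ends of the Gna13 order, CLL cells at 75.8 ± 19.3 TPM and wild-type cells at 110 ± 12.5 TPM, did not overlap but were not called apart.

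The make-up of the 7 Rgs transcripts in aged libraries was led by Rgs19 in 12 of 12. Rgs19 held 74.3% ± 3.15 of their summed TPM in CLL, 58.1% ± 9.11 in non-CLL and 75.8% ± 9.66 in wild-type cells. Rgs1 and Rgs2 together held 6.44% ± 2.05 in CLL, 20.6% ± 5.88 in non-CLL and 5.05% ± 1.18 in wild-type cells, and the lowest non-CLL library (15.7%) was above the highest CLL (8.65%) and wild-type (6.27%) libraries. The Gnai2 to Gna13 ratio was 3.58 ± 0.916 in CLL, 3.52 ± 1.398 in non-CLL and 2.28 ± 0.229 in wild-type cells. Rgs10 varied widely within groups, at 21.8, 106 and 34.3 TPM in the 3 wild-type libraries and 12.5 to 78.9 TPM in CLL libraries, so that group means of 45.2, 55.2 and 54.2 TPM in CLL, non-CLL and wild-type cells could not be separated.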

How the data were processed

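RNA was measured in 18 of the 30 samples of the series; the 12 chromatin samples, 3 of them with no clear group, were not analysed here. The deposited values are TPM computed by the authors: the labels name the unit for the aged table, and in the young table the column sums fit it. Per the submitters' processing notes, the build was mm10 and the tools were MACS2 2.2.0, STAR 2.4.0.1 and Bowtie2 2.3.4.1, without their roles. For quantification, annotation and strand the tool or setting is not given in the sources used here. Since TPM keeps no read number, depth is unknown and no counting interval is given. Entries whose names had become dates (25 aged, 26 young) and 887 unnamed young entries (4.44% to 9.36% of TPM per library) were left out.

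For each of 4 comparisons, a gene was tested if it reached 1 TPM in a number of libraries equal to the size of the smaller group. All 9 genes passed in every comparison. Two-sided tests on log2(TPM + 1) used limma 3.58.1 (R 4.3.3), with robust, trended variance, fitted on the 2 groups compared only. Benjamini-Hochberg adjustment ran over all genes tested, with a threshold of 0.05. Fold changes on this scale understate changes of low genes. The procedure was tested on simulated data. Alternatives were a pseudocount of 0.1, no filter, a minimum of 20 TPM, TMM rescaling of TPM, subtraction of the olfactory receptor median, library quality weights, all aged groups in 1 fit, heterozygous libraries only, a replicate block and leaving out each library. Leaving out CLL library 6 together with a minimum of 20 TPM was chosen after seeing the data.

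CLL and non-CLL libraries of the same number come from the same mouse, per the series' design text; the deviations of same-numbered libraries from their group means correlated at -0.03 to 0.13. The genes, the lists of pathway, immediate early and marker genes (B, T, NK and dendritic, myeloid, platelet), and the tests were chosen with earlier results of these data known. From each pathway list, up to 3 called genes without overlap could be named in each direction, those of largest change, and for Rgs1 and Rgs2 the 5 genes with the highest Pearson correlation among those with a mean of at least 20 TPM. Some of these genes are not reported here. Promoters, motifs and ratios were chosen after values were seen. Sequences and coordinates are from RefSeq tables of GRCm38.p6, in which 25054 young and 20356 aged symbols were found.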

Additional observations from a re-analysis of the deposited data

Results flagged for a closer look

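Among the 18 groups of 4 or 5 libraries examined, Gna13 in non-CLL library 4 was at 140.607 TPM, against 73.5 to 76.2 TPM in the other 3 non-CLL libraries, a gap large for the range of its group. Chance gives about 1 such case in 20 groups. Rgs18 moved in opposite directions in 2 comparisons, with every mutant library on one side of every wild-type library in each. Its log2 change was -0.32 (-0.315251) in young homozygous against young wild-type cells and 1.82 (1.82498) in aged non-CLL against aged wild-type cells. This difference was not tested, since the tables were normalized separately.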

How the results depend on the processing

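Of 585 values of the 9 genes under alternatives, 525 kept direction and side of the threshold, 16 lost and 14 gained the call and 30 changed sign. The cause of these shifts was not tested. In young cells 6237 genes were called, against 4002 with a minimum of 20 TPM and 2858 without wild-type libraries 1 and 2. Members called lower were 1, against 4 with TMM rescaling, 2 with library weights and 0 without wild-type libraries 1 and 2, where Gnai2 turned to 0.013. In CLL against wild-type cells 751 genes were called, against 8853 with pseudocount 0.1, 457 with no filter, 149 at 20 TPM, 6104 with TMM, 101 with background subtracted, 12299 with weights, 6712 with all aged groups in 1 fit, 5643 in heterozygous libraries and 46 without CLL library 6 at 20 TPM. Weights called 1 member higher and 1 lower, against 0 and 0. Gnai2 turned to -0.12 with TMM, and Rgs1 to 0.13 and Rgs10 to 0.28 with weights. In CLL against non-CLL cells 1287 genes were called, against 256 with pseudocount 0.1, 232 at 20 TPM, 390 with TMM, 348 with background subtracted, 11705 with weights, 3387 with all aged groups in 1 fit, 11173 in heterozygous libraries and 209 without CLL library 6 at 20 TPM. Members called lower were 2, against 1 with TMM, 1 with background subtracted and 1 without CLL library 6 at 20 TPM, where Rgs2 stood at -1.30 (adjusted p = 0.0663, limma). With TMM Rgs10 turned to 0.48, Rgs14 to 0.65, Rgs18 to 0.65, Gnai2 to 0.79 and Gna13 to 0.71, and Rgs18 was 0.056 with background subtracted and 0.0038 with weights. In non-CLL against wild-type cells 12681 genes were called, against 83 at 20 TPM and 43 with background subtracted. Members called higher were 4, against 2 at 20 TPM, 2 with TMM and 0 with background subtracted, and members called lower 0, against 2 with TMM. TMM turned Rgs3 to -0.58, Rgs10 to -0.73, Rgs14 to -0.011 and Gnai2 to -0.81, background subtraction Rgs3 to -1.43, and heterozygous libraries alone Rgs19 to 0.021. Leaving out 1 library gave 4511 to 6860 genes in young cells, with 4 members higher and 1 lower throughout. It gave 345 (without wild-type 3) to 8222 (without CLL 4) in CLL against wild-type cells, with 437 without wild-type 1, 479 without CLL 5, 4258 without wild-type 2, 5112 without CLL 1 and 5643 without CLL 6, and 0 to 1 members higher. It gave 325 (without non-CLL 4) to 11118 (without CLL 6) in CLL against non-CLL cells, with 333 to 741 without the others, and 1 to 2 members lower. It gave 11315 to 12862 in non-CLL against wild-type cells, with 3 to 4 members higher. Signs that turned were, in CLL against wild-type cells, Rgs1 0.18 and Rgs10 0.21 without CLL 1, Rgs1 0.04 without CLL 4 and 0.11 without CLL 5, and Rgs1 0.28, Rgs10 0.46 and Gnai2 -0.086 without wild-type 2, within ranges of -0.47 to 0.28 for Rgs1, -0.65 to 0.46 for Rgs10 and -0.086 to 0.19 for Gnai2. In CLL against non-CLL cells Rgs18 turned to 0.39 without CLL 4 (range -0.46 to 0.39). In non-CLL against wild-type cells they were Rgs19 0.13 and 0.02 without non-CLL 2 and 6, 0.08 and 0.03 without wild-type 1 and 3, and Rgs10 -0.19 without wild-type 1 (range -0.19 to 0.93).

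A replicate block on the mouse gave 799 genes in CLL against non-CLL cells (333 without the block on the same libraries) and changed no call of the 9 genes there. Young libraries and CLL and wild-type libraries share only numbers (pair correlations -0.10 to 0.32 and -0.01 to 0.04). The block gave 6631 genes with 4 members higher and 1 lower in young cells, and 5678 genes in CLL against wild-type cells on numbers 1 and 2, with 1 member higher (Rgs18, 2.70, adjusted p = 0.0176, limma). In that last fit 29.1% of all genes were called higher. No paired analysis was possible because non-CLL and wild-type libraries share 1 number. Without read numbers, what depth limits cannot be stated, and levels under the olfactory receptor background were not resolved.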
